A study of Arabidopsis thaliana with 18 samples.

Results

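Roots of the vnd7 mutant were compared with roots of the wild type Col-0 of Arabidopsis thaliana (thale cress), both on mock plates without the hormone abscisic acid (ABA). The comparison used 6 of the 18 libraries of the series, chosen by genotype and treatment alone: 3 vnd7 mock libraries and 3 Col-0 mock libraries, across all genes. Seedlings were 5 days old and were moved to mock plates for 8 h. Each library pooled roots of 50 to 100 seedlings, for which the labels give 1 cm of root. The labels give the mutant only as vnd7, with no allele, and the series also holds vnd123, in which VND1, VND2 and VND3 are mutated together. Every genotype was also sampled after 8 h on 1 µM ABA, again in 3 libraries per group. The series title asks which ABA changes depend on VND factors, and the mock comparison gives the state of the roots before ABA enters.

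The VND family are transcription factors of the NAC class that turn precursor cells into xylem vessels, dead and hollow cells that carry water. They activate MYB factors such as MYB46 and MYB83, and with them the genes for the cellulose, xylan and lignin of the thick secondary wall and for the proteases and nucleases that clear the cell. VND7 is best known as a regulator of protoxylem, the first vessels that form in the root, and the other VND genes act in overlapping ways.

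Total counts were 49195956 to 58705802 in the vnd7 mock libraries and 45201382 to 52030490 in the Col-0 mock libraries. In all 6 libraries root genes were present: SHR stood at 43 to 50 CPM (counts scaled to a common library size, on TMM-scaled totals), SCR at 60.2 to 64.3, the root hair gene COBL9 at 44.5 to 53.6, and PYK10, a root beta-glucosidase gene, at 8160 to 9930. The first principal component of the 6 libraries held 27.7% of the variance, and the genotypes overlapped along it. In order of replicate number, Col-0 libraries stood at -37.8, -10.5 and 5.65 and vnd7 libraries at -9.2, 16.7 and 35.1. Each vnd7 library thus lay above the Col-0 library of its number, though no label pairs them. Roots are mixtures of cells, so fewer cells of a type and less RNA per cell cannot be told apart.

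Few genes differed between vnd7 and Col-0 roots without ABA. Of 20869 genes tested with edgeR's quasi-likelihood test, 14 passed an adjusted p of 0.05 (0.0671%). In vnd7, 10 of them were higher (0.0479%) and 4 were lower (0.0192%). At an unadjusted p under 0.05 there were 1017 genes (4.87%). The median log2 fold change over all genes was -0.0016, and the middle 90% of genes lay between -0.32 and 0.39. Ranges of the 3 vnd7 and the 3 Col-0 libraries did not overlap in 2190 genes (10.5% of those tested), all 14 among them. Simulated counts of this comparison had changes planted in 67 genes at 1.5-fold, 67 at 2-fold and 66 at 4-fold. The test found 52.2% of the 1.5-fold changes, 79.1% of those of 2-fold and 87.9% of those of 4-fold. More genes were planted than passed in the real counts, which makes the adjusted threshold easier to reach. The rates may therefore be too high for the real counts.

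**Figure D1:**
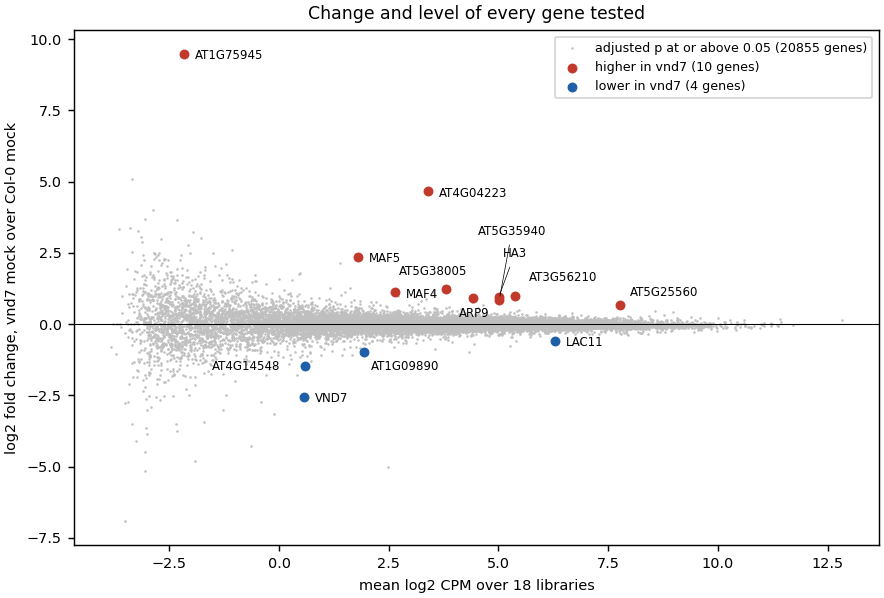
Log2 fold change of vnd7 mock over Col-0 mock (vertical) against mean log2 CPM over all 18 libraries (horizontal) for the 20869 genes tested. Grey points did not pass, and the 10 red and 4 blue genes passed as higher and lower in vnd7. The height of the point for AT1G75945, which had 1 read in Col-0 mock, depends on the small count the fit adds and is not a measured fold.

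VND7 itself was lower in vnd7 roots. Its counts were 33, 14 and 18 reads in the vnd7 libraries, against 104, 104 and 136 reads in the Col-0 libraries, or 0.605, 0.227 and 0.354 CPM against 2.27, 2.13 and 2.55 CPM. Every vnd7 library lay below every Col-0 library, and reads at the locus remained. The log2 fold change was -2.56 ± 0.29 (SE, adjusted p = 9.02e-05). Of the 10 genes on either side of VND7 on the chromosome, 13 of 20 were tested and 0 passed. Their log2 changes ran from -0.38 to 1.68 and their smallest adjusted p was 0.947. The highest of these values, for the histidinol-phosphate aminotransferase gene HISN6B, came from a single library: it had 9, 207 and 0 reads in vnd7 and 11, 24 and 20 reads in Col-0. HISN6B has a near-identical copy, so its reads are uncertain.

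None of the other VND genes passed. VND4 was at 9.55, 8.55 and 10.2 CPM in vnd7 and at 7.98, 6.71 and 6.74 CPM in Col-0, without overlap, with a log2 change of 0.40 ± 0.10 (adjusted p = 0.300). VND3 was at 4.25, 5.44 and 5.39 CPM in vnd7 and at 3.88, 3.57 and 3.84 CPM in Col-0, also without overlap (0.42 ± 0.13, adjusted p = 0.724). VND5 was at 2.13, 2.03 and 2.87 CPM in vnd7 and at 1.85 CPM in each Col-0 library, again without overlap (0.34 ± 0.21, adjusted p = 0.947). The non-overlap of VND3, VND4 and VND5 is to be read against the 10.5% of all genes that show it. VND6 had a log2 change of 0.51 ± 0.28. For VND6 a single Col-0 library, at 2.27 CPM against 0.937 and 1.03 CPM in the others, lay above all vnd7 libraries, which had 2.05, 1.95 and 2.07 CPM. VND1 (0.32 ± 0.48) and VND2 (-0.17 ± 0.21) overlapped between the genotypes, with VND1 at 1.47 to 2.05 CPM in vnd7 and 1.24 to 1.48 CPM in Col-0, and VND2 at 1.46 to 1.89 CPM in vnd7 and 1.48 to 2.17 CPM in Col-0.

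**Figure D2:**
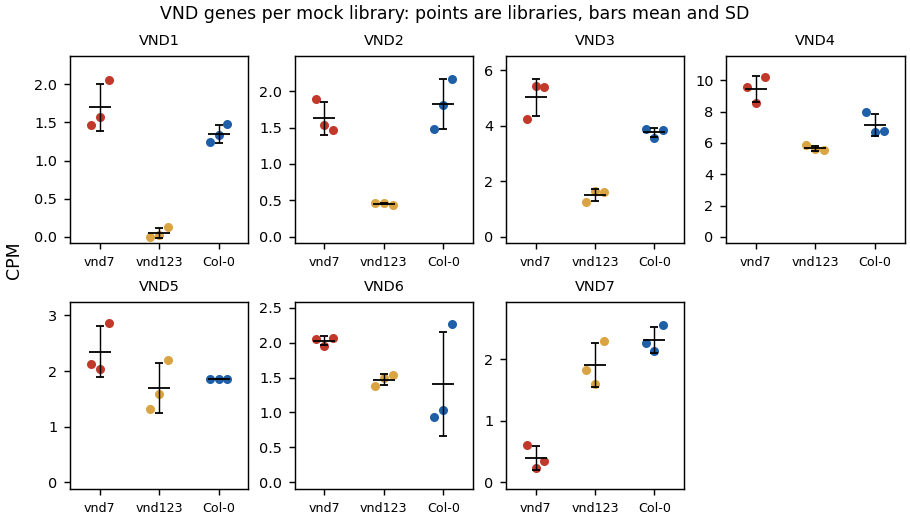
CPM of the 7 VND genes in each mock library of vnd7, vnd123 and Col-0. Points are libraries and bars show the mean and SD of 3. VND7 is lowest in vnd7, while VND3, VND4 and VND5 lie above Col-0 in all 3 vnd7 libraries without passing the test.

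Of the secondary wall program, a single gene passed the test in vnd7 roots. Over 7 lists of vessel and secondary wall genes (other NAC and LBD regulators, wall transcription factors, secondary wall cellulose, xylan, lignin, vessel cell death and wall pit patterning), 96 of 100 members were tested. Among these 96, 0 passed as higher and 1 passed as lower, the laccase gene LAC11. By edgeR's test 10 of the 96 (10.4%) had an unadjusted p under 0.05, beside 4.87% of all genes tested. The median log2 change of the 96 was -0.01, beside -0.0016 for all genes. For 89 of the 96 the 95% interval of the change lay within 2-fold either way, and for 77 within 1.5-fold.

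The 3 cellulose synthases of the secondary wall show this precision. CESA4 was at 65.2, 63.8 and 78.9 CPM in vnd7 and at 58.3, 64.6 and 62.3 CPM in Col-0, with a log2 change of 0.17 (95% interval -0.04 to 0.37). CESA7 was at 48.6, 48.1 and 56.7 CPM in vnd7 and at 48.0, 53.2 and 48.1 CPM in Col-0 (0.04, interval -0.17 to 0.25). CESA8 was at 30.7, 34.4 and 39.7 CPM in vnd7 and at 32.0, 34.3 and 30.9 CPM in Col-0 (0.11, interval -0.10 to 0.32). The 2 genotypes overlapped for all 3 synthases. All 9 genes of the cellulose list had changes between -0.13 and 0.21. Of the 9, the smallest p belonged to CTL2, a chitinase-like protein of wall assembly, at 61.8, 52.1 and 58.8 CPM in vnd7 and 47.2, 54.4 and 47.7 CPM in Col-0 (0.21 ± 0.09, adjusted p = 0.947).

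Upstream of the wall enzymes, 0 of 15 wall transcription factors tested passed. MYB46, a direct VND target, was at 4.49, 4.79 and 5.31 CPM in vnd7 and at 7.41, 5.83 and 5.70 CPM in Col-0. The vnd7 libraries lay below all Col-0 libraries, and the log2 change of -0.37 ± 0.15 did not pass (adjusted p = 0.947). Its partner MYB83 was at 1.58, 1.66 and 2.16 CPM in vnd7 and at 2.05, 2.30 and 1.69 CPM in Col-0, which overlap (-0.16 ± 0.22). SND2, a NAC factor of the wall program, was at 5.23, 4.56 and 5.73 CPM in vnd7 and at 3.99, 4.54 and 3.65 CPM in Col-0 (0.35 ± 0.16, adjusted p = 0.947). Intervals were wide for scarce genes: MYB69, with 126 reads in the 6 libraries together, had a change of 1.47 and an interval from -0.11 to 3.04.

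Among 20 xylan genes tested, 0 passed, and their changes lay between -0.16 and 0.23. The xylan backbone gene IRX9 was at 18.9, 17.5 and 19.8 CPM in vnd7 and at 19.3, 17.5 and 16.6 CPM in Col-0 (0.07 ± 0.09). GXM1, a xylan methyltransferase gene, had the smallest p of that list (-0.16 ± 0.07, adjusted p = 0.947). In the 8 genes of vessel cell death, 0 passed. XCP2, a papain-type protease of vessel autolysis, was at 156, 137 and 155 CPM in vnd7 and at 147, 147 and 120 CPM in Col-0 (0.11 ± 0.09, adjusted p = 0.947). The wall pit genes, which place the gaps in the wall through ROP GTPases and microtubules, had 0 of 6 past the threshold, and the smallest p was that of ROPGAP3 (-0.14 ± 0.09, adjusted p = 0.947).

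LAC11 was the 1 gene of 29 in the lignin list that passed. Laccases oxidise monolignols so that they couple into lignin, and LAC11 acts in this with LAC4 and LAC17. LAC11 was at 56.3, 48.6 and 49.8 CPM in vnd7, against 78.3, 79.9 and 72.5 CPM in Col-0, with no overlap. The log2 change was -0.58 ± 0.09 (interval -0.77 to -0.38, adjusted p = 0.00977). Leaving out 1 library ended this call in 4 of 6 cases: the adjusted p was 0.0624 without Col-0 mock replicate 1, 0.0755 without Col-0 mock replicate 2, 0.150 without vnd7 mock replicate 2 and 0.108 without vnd7 mock replicate 3. LAC4 was at 72.9, 68.0 and 78.3 CPM in vnd7 and at 63.8, 69.5 and 63.8 CPM in Col-0 (0.15 ± 0.09), and LAC17 was at 33.7, 29.5 and 34.5 CPM in vnd7 and at 28.7, 29.3 and 29.0 CPM in Col-0 (0.17 ± 0.09), and neither passed. LAC11 overlaps the gene AT5G03250 on the opposite strand in the reference annotation. The library kit does not mark strand, so reads in the overlap cannot be assigned, and AT5G03250 itself had a log2 change of -0.08.

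In other tissue lists no member passed, and the member with the smallest p is given for each. The xylem patterning list, with the HD-ZIP III and TMO5 genes, had 0 of 12 past the threshold and a median log2 change of 0.04, with T5L1, a TMO5 relative, at 0.16 ± 0.11 (adjusted p = 0.947). The procambium list had 0 of 12 and a median of 0.16, and ANT, a factor of cambium cell division, was at 3.01 to 4.82 CPM in vnd7 and 1.74 to 2.59 CPM in Col-0 (0.78 ± 0.26, adjusted p = 0.730). In the phloem list (0 of 15, median 0.12) the sugar exporter gene SWEET12 was at 1.01, 0.260 and 0.413 CPM in vnd7 and 2.46, 0.205 and 1.46 CPM in Col-0, which overlap (-1.30 ± 0.58, adjusted p = 0.947). The list of cell cycle and root meristem genes had 0 of 18 and a median of 0.004, with the meristem factor PLT1 at 0.21 ± 0.10. In the endodermis list (0 of 10, median -0.13) CASP5, of the Casparian strip, was at 27.2, 21.6 and 20.1 CPM in vnd7 and 35.1, 32.1 and 26.6 CPM in Col-0 (-0.44 ± 0.14, adjusted p = 0.707). The suberin list had 0 of 19 and a median of -0.09, with the suberin hydroxylase CYP86A1 at -0.29 ± 0.11 (adjusted p = 0.930). In the root hair list (0 of 11, median -0.15) the smallest p was that of the hair cell regulator CPC (-0.27 ± 0.11), and in the root cap list (0 of 4, median 0.27) that of SMB, a NAC factor of cap cells, at 7.12, 8.85 and 7.04 CPM in vnd7 and 5.73, 6.34 and 5.00 CPM in Col-0 (0.43 ± 0.17, adjusted p = 0.947).

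Hormone lists gave no call either. The ABA receptors had 0 of 9 past the threshold (median -0.09, PYL2 at -0.22 ± 0.12), and the ABA and dehydration genes 0 of 12 (median 0.01, KIN2 at -0.28 ± 0.14). Among clade A PP2C phosphatases, which the receptors inhibit, 0 of 9 passed (median 0.01). Their smallest p, that of HAI2, rested on 0, 1 and 1 reads in vnd7 and 0, 0 and 14 reads in Col-0. The auxin list had 0 of 17 (median 0.08, GH3.2 at 0.31 ± 0.14), and the type-A cytokinin regulators 0 of 9 (median 0.02, ARR16 at -0.84 ± 0.31). Of the jasmonate genes 0 of 8 passed (median -0.12), and VSP2, with the smallest p, had 0, 4 and 0 reads in vnd7 and 26, 4 and 0 reads in Col-0.

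Stress and nutrition lists were alike in having no call. For hypoxia (0 of 10, median 0.24), LBD41, a gene induced at low oxygen, was at 7.04, 4.17 and 10.6 CPM in vnd7 and 3.29, 3.59 and 4.10 CPM in Col-0 (0.98 ± 0.32, adjusted p = 0.724). For iron deficiency (0 of 17, median -0.04), FER1, a ferritin gene of iron storage, was at 108, 88.3 and 97.2 CPM in vnd7 and 142, 114 and 208 CPM in Col-0 (-0.66 ± 0.21, adjusted p = 0.727). Both genes had ranges that did not overlap, as 10.5% of all genes did. The defence list had 0 of 4 (median 0.04, FRK1 at 0.95 ± 0.43), touch and wounding 0 of 7 (-0.01, STZ at -0.44 ± 0.26), heat shock 0 of 5 (0.02, HSP101 at 0.19 ± 0.18), and nitrate, phosphate and sulfate uptake 0 of 9 (-0.11, SULTR1;1 at -0.29 ± 0.16). The marneral and thalianol clusters had 0 of 7 (0.16, MRN1 at 0.95 ± 0.24), ER body genes 0 of 8 (0.09, BGLU22 at 0.18 ± 0.07), aquaporins 0 of 15 (-0.04, TIP2;1 at -0.26 ± 0.11), and primary wall cellulose 0 of 5 (0.04, CESA6 at 0.08 ± 0.10). The clock list had 0 of 11 (0.05, TOC1 at 0.08 ± 0.09) and the dark-inducible list 0 of 5 (-0.14, DIN10 at 0.17 ± 0.29). Of 36 lists with 391 tested members, 3 held a gene that passed: the VND list, the lignin list and the list of FLC and MAF floral repressors.

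Many of the same wall genes were higher in vnd7 than in vnd123. The comparison of vnd7 mock with vnd123 mock shares the vnd7 libraries with the comparison above, so the values are set side by side and not correlated. It had 103 genes past the threshold (0.494%), 94 higher (0.450%) and 9 lower (0.0431%) in vnd7. Of the same 96 vessel and wall genes, 27 were higher in vnd7 than in vnd123 and 0 were lower, with a median log2 change of 0.19. All 9 cellulose genes and 10 of the 20 xylan genes were among the 27. CESA4 averaged 69.3 ± 8.34 CPM in vnd7, 38.9 ± 1.95 CPM in vnd123 and 61.7 ± 3.19 CPM in Col-0 (SD, n = 3 each), with a log2 change of 0.83 ± 0.10 over vnd123 (adjusted p = 8.1e-05). COBL4, a COBRA-like protein of wall cellulose, averaged 21.6 ± 0.784 CPM in vnd7, 8.16 ± 1.3 CPM in vnd123 and 18.8 ± 1.77 CPM in Col-0 (1.40 ± 0.10 over vnd123, adjusted p = 2.5e-07, and 0.20 ± 0.10 over Col-0, adjusted p = 0.947). LAC4 averaged 73.1 ± 5.17 CPM in vnd7 and 36.2 ± 2.19 CPM in vnd123 (1.01 ± 0.09, adjusted p = 1.97e-06), SND2 5.17 ± 0.584 CPM in vnd7 and 1.48 ± 0.111 CPM in vnd123 (1.80 ± 0.18, adjusted p = 8.97e-06), and MYB46 4.86 ± 0.415 CPM in vnd7 and 2.87 ± 0.644 CPM in vnd123 (0.76 ± 0.15, adjusted p = 0.0252). LAC11 was at 56.3, 48.6 and 49.8 CPM in vnd7 and at 52.7, 54.4 and 46.6 CPM in vnd123, which overlap, with a log2 change of 0.01 ± 0.09 over vnd123. Outside the wall lists, AT2G41650, an uncharacterized protein, was among the genes with the smallest p over vnd123, at 64.6, 69.8 and 64.9 CPM in vnd7, 29.3, 33.4 and 31.5 CPM in vnd123 and 71.7, 68.7 and 68.6 CPM in Col-0 (1.08 ± 0.08 over vnd123, adjusted p = 2.5e-07).

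**Figure D3:**
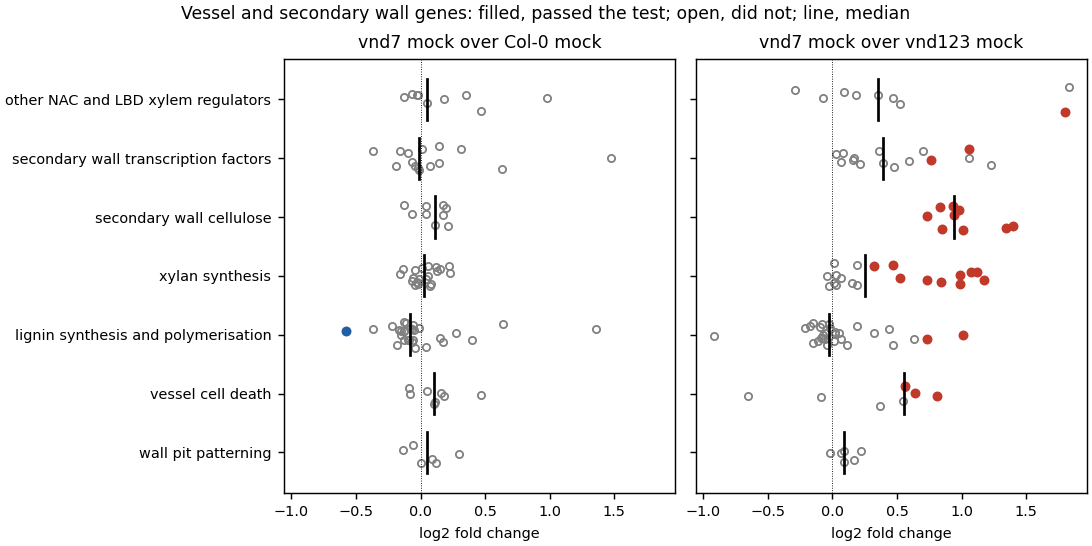
Log2 fold changes of the members of the 7 vessel and secondary wall lists, in vnd7 mock over Col-0 mock (left) and vnd7 mock over vnd123 mock (right). Each point is a gene, filled where it passed (red higher, blue lower in vnd7), and the black line is the list's median. On the left the single filled point is LAC11, and on the right 27 genes are filled and all are higher in vnd7.

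Of the genes that passed, AT1G75945 and AT4G04223 had larger changes than VND7, and neither belongs to the vessel lists. AT1G75945, annotated as an uncharacterized protein, had 343, 474 and 306 reads in vnd7 mock, against 0, 0 and 1 reads in Col-0 mock, and vnd123 mock had 1, 0 and 0 reads. The ratio of vnd7 to Col-0 was 995, with a 95% counting interval from 178 to 39300 (adjusted p = 3.15e-08). Over vnd123 the ratio was 1080, with an interval from 193 to 42600. In ABA the gene had 276, 202 and 284 reads in vnd7 and 0 reads in each Col-0 library, at least 206-fold higher in vnd7 with a floor of 3 reads over the Col-0 group. Reads of AT1G75945 in number were thus found in vnd7 libraries of both treatments and hardly at all in those of Col-0. Its neighbour SKP1, a ubiquitin ligase subunit, had a log2 change of -0.09 in mock.

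AT4G04223, a gene of non-coding RNA, was at 34.2, 27.6 and 30.0 CPM in vnd7, against 1.00, 1.03 and 1.57 CPM in Col-0 (log2 change 4.66 ± 0.22, adjusted p = 2.66e-10). The vnd123 libraries had 43.8, 43.0 and 40.0 CPM, and the change of vnd7 over vnd123 was -0.47 ± 0.16 (adjusted p = 0.620). AT5G38005, also non-coding, was at 19.3, 17.5 and 16.7 CPM in vnd7, against 7.50, 7.14 and 8.11 CPM in Col-0 (1.23 ± 0.12, adjusted p = 9.51e-06). It stood higher still in vnd123, at 25.2, 26.0 and 26.5 CPM (vnd7 over vnd123 -0.54 ± 0.11, adjusted p = 0.0306). The non-coding gene AT4G14548 was lower, at 0.624, 0.795 and 0.846 CPM in vnd7, against 2.14, 1.85 and 2.36 CPM in Col-0 (-1.48 ± 0.26, adjusted p = 0.0232), and at 0.968, 1.80 and 1.68 CPM in vnd123. Its mean level was below the minimum of the naming rule, and it is named because it passed. Genes of the annotation class ncRNA made up 3 of the 14 that passed and 111 of the genes tested. Protein-coding genes made up 11 of the 14 and 20266 of the genes tested. Genes tested in other annotation classes were not counted.

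**Figure D4:**
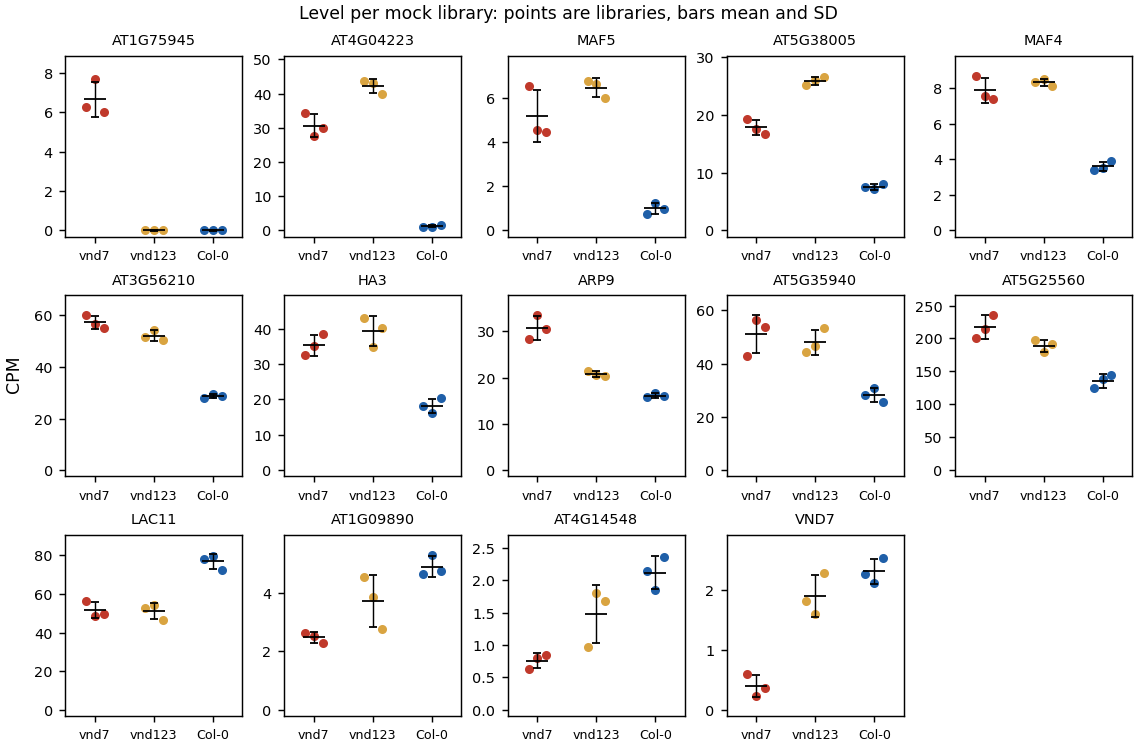
CPM in each mock library of vnd7, vnd123 and Col-0 for the 14 genes that passed in vnd7 against Col-0. Points are libraries and bars show the mean and SD of 3, and each panel has its own linear axis. No vnd7 library overlaps a Col-0 library in any panel, and AT1G75945 is near 0 in both vnd123 and Col-0.

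MAF4 and MAF5, neighbouring MADS-box genes that repress flowering in the family of FLC, were both higher in vnd7. MAF5 was at 6.55, 4.56 and 4.45 CPM in vnd7, against 0.741, 1.25 and 0.993 CPM in Col-0 (2.37 ± 0.20, adjusted p = 1.21e-06). MAF4 was at 8.67, 7.56 and 7.38 CPM in vnd7, against 3.40, 3.53 and 3.90 CPM in Col-0 (1.12 ± 0.13, adjusted p = 0.000114). In vnd123, MAF5 was at 6.78, 6.63 and 5.98 CPM and MAF4 at 8.37, 8.49 and 8.10 CPM, and the changes of vnd7 over vnd123 were -0.32 ± 0.17 for MAF5 and -0.08 ± 0.12 for MAF4, which did not pass. The genes on either side of the pair did not pass: MAF3 was at 17.9, 13.2 and 14.4 CPM in vnd7 and 16.5, 14.4 and 14.5 CPM in Col-0 (0.002 ± 0.11), and BST1, on the other side, had a change of -0.04. MAF1 (-0.05 ± 0.07), MAF2 (0.02 ± 0.06) and FLC (0.41 ± 0.42) did not pass either. MAF genes are close in sequence, so shared reads could be split among them, and how multi-mapped reads were counted is not stated. SVP, a MADS-box partner of these repressors, was at 3.08, 1.92 and 2.46 CPM in vnd7 and at 5.30, 5.48 and 3.41 CPM in Col-0, and its change of -0.93 ± 0.20 did not pass (adjusted p = 0.162). SVP did pass with DESeq2 (adjusted p = 0.00700) and without Col-0 mock replicate 3 (-1.12, adjusted p = 0.0307). In vnd123 mock SVP was at 2.42, 2.08 and 2.62 CPM.

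ARP9, a gene of the nuclear actin-related proteins, was at 28.4, 33.5 and 30.4 CPM in vnd7, against 15.7, 16.6 and 16.0 CPM in Col-0 (0.93 ± 0.07, adjusted p = 2.06e-07). In vnd123 it was at 21.4, 20.6 and 20.3 CPM, between vnd7 and Col-0, and vnd7 was higher than vnd123 by 0.57 ± 0.07 (adjusted p = 8.44e-05). HA3, a plasma membrane proton pump that energises transport, was at 32.5, 35.1 and 38.5 CPM in vnd7, against 18.1, 16.1 and 20.3 CPM in Col-0 (0.96 ± 0.11, adjusted p = 8.5e-05). Its level in vnd123 was 43.2, 34.9 and 40.3 CPM. AT3G56210, an armadillo repeat protein, was at 60.1, 56.5 and 55.2 CPM in vnd7, against 27.8, 29.4 and 28.6 CPM in Col-0 (1.00 ± 0.09, adjusted p = 5.11e-06), with 51.6, 54.5 and 50.3 CPM in vnd123.

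AT5G25560, a zinc finger protein with a RING domain, had the highest level of the 14, at 201, 215 and 236 CPM in vnd7, against 124, 138 and 145 CPM in Col-0 (0.68 ± 0.08, adjusted p = 0.000131). It was at 197, 179 and 191 CPM in vnd123. It overlaps AT5G25570 on the same strand, which had a change of -0.17. AT5G35940, a mannose-binding lectin, was at 43.0, 56.3 and 53.8 CPM in vnd7, against 28.2, 31.0 and 25.4 CPM in Col-0 (0.86 ± 0.14, adjusted p = 0.00977). In vnd123 the lectin gene was at 44.3, 46.6 and 53.3 CPM. AT1G09890, annotated as a rhamnogalacturonate lyase, an enzyme that cuts pectin, was at 2.64, 2.52 and 2.28 CPM in vnd7, against 4.64, 5.30 and 4.76 CPM in Col-0 (-0.98 ± 0.16, adjusted p = 0.00977). In vnd123 the lyase gene was at 4.53, 3.87 and 2.75 CPM, and the 3 libraries spread over most of the gap between the other genotypes.

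Besides LAC11, 3 of these calls did not hold whenever 1 library was left out. AT5G35940 missed the threshold without Col-0 mock replicate 1 or 3 and without vnd7 mock replicate 2 or 3, with adjusted p-values up to 0.100. AT1G09890 missed it without Col-0 mock replicate 2 and without vnd7 mock replicate 2 or 3 (up to 0.108). AT4G14548 missed it without any 1 of the 3 vnd7 mock libraries and without Col-0 mock replicate 1 or 3 (up to 0.143). In a fit to the 6 libraries alone, AT1G09890 (adjusted p = 0.0715) and AT4G14548 (0.124) also missed the threshold. The other 10 calls held with any 1 of the 6 libraries left out. Of the genes that passed, AT4G14548 had the largest adjusted p (0.0232), and AT1G09890, LAC11 and AT5G35940 each had 0.00977. Just outside the threshold were AT1G44030, HEI10 and AT1G23460. AT1G44030, a C1 domain protein, changed by -1.24 ± 0.24 (adjusted p = 0.0741). HEI10, a RING finger protein of meiotic crossover, changed by -0.63 ± 0.12 (adjusted p = 0.0832). AT1G23460, annotated as a polygalacturonase, changed by -0.41 ± 0.08 (adjusted p = 0.0850). All 3 of the genes just outside passed with DESeq2. AT1G44030 also passed without the filter on low counts (adjusted p = 0.0456), with a replicate block (0.0488) and in a fit to the compared groups only (0.0212). HEI10 passed without vnd7 mock replicate 2 (0.00367) and AT1G23460 without Col-0 mock replicate 3 (0.0440).

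The same genotype contrast under ABA used 6 other libraries. With ABA, 34 genes passed (0.163%), 16 higher (0.0767%) and 18 lower (0.0863%) in vnd7. Of the 14 genes from mock, 13 also passed in ABA, all in the same direction. They were 92.9% of the mock genes and 38.2% of the ABA genes. AT4G14548 was the exception, with a change of -1.20 ± 0.25 in ABA (adjusted p = 0.0571). In ABA, AT4G04223 was at 25.5, 34.8 and 27.9 CPM in vnd7, against 0.608, 0.351 and 1.32 CPM in Col-0 (5.22 ± 0.24). For MAF5 the ABA libraries gave 4.82, 5.29 and 5.38 CPM in vnd7, against 0.963, 1.16 and 1.54 CPM in Col-0 (2.07 ± 0.20), and for LAC11 they gave 84.3, 102 and 83.6 CPM in vnd7, against 142, 149 and 144 CPM in Col-0 (-0.69 ± 0.09, adjusted p = 0.000796).

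A test of whether the genotype effect differed between ABA and mock found 0 of 20869 genes with edgeR (0%), with 835 at an unadjusted p under 0.05, and 0 with DESeq2, with 906 at an unadjusted p under 0.05. The smallest adjusted p was 0.895. VND7 had 0.249, 0.230 and 0.406 CPM in vnd7 and 5.50, 5.46 and 5.79 CPM in Col-0 under ABA, a change of -4.24 ± 0.30. The difference of this change from that in mock was -1.69 ± 0.43 and did not pass (adjusted p = 0.895). Among the 14 genes the differences for AT5G25560 (0.31 ± 0.11), AT5G38005 (0.43 ± 0.17) and HA3 (0.02 ± 0.15) did not pass either. The smallest p-values of this test belonged to SFH3, a SEC14-like lipid transfer protein (0.52 ± 0.11), CBP60G, a calmodulin-binding regulator of defence (-2.96 ± 0.61), and AT1G14960, of the polyketide cyclase superfamily (0.60 ± 0.13), each with an adjusted p of 0.895. SFH3 was at 26.2, 26.9 and 25.5 CPM in vnd7 and 16.9, 17.8 and 20.3 CPM in Col-0 under ABA, and at 16.7, 17.2 and 17.3 CPM in vnd7 and 18.4, 17.2 and 15.8 CPM in Col-0 in mock.

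**Figure D5:**
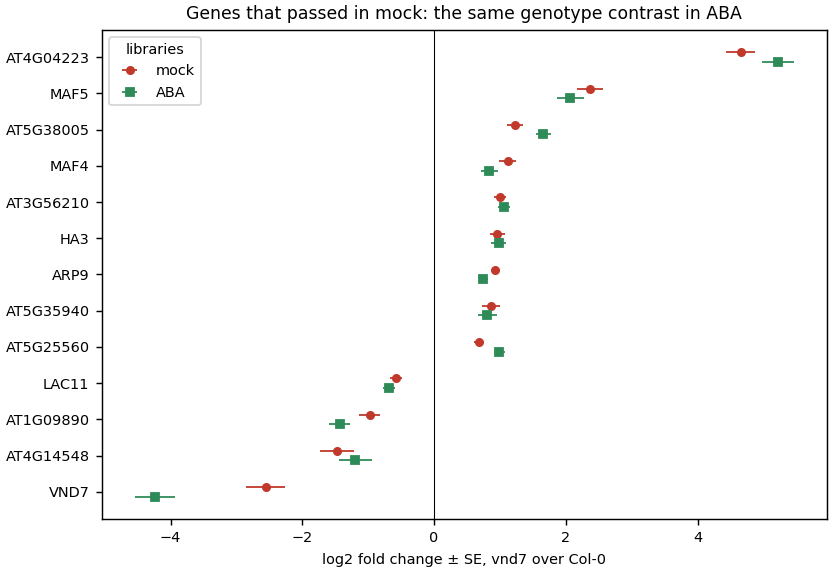
Log2 fold change of vnd7 over Col-0 with its SE, in mock libraries (red circles) and ABA libraries (green squares), for 13 of the 14 genes that passed in mock. AT1G75945 is left out because its fold against 0 or 1 reads is only a bound or a wide interval. Every gene keeps its direction, and 12 of these 13 genes also passed in ABA.

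Light-harvesting and Rubisco genes, markers of shoot or greening tissue, had mostly negative changes in vnd7, and none passed. Of the 17 in the list, 13 were tested, 0 passed, 1 had a positive change and the median log2 change was -0.33. Their summed level was 203 to 306 CPM in vnd7 and 276 to 376 CPM in Col-0, which overlap. In vnd123 mock the sum was 216 to 313 CPM, and the median log2 change of vnd7 over vnd123 was -0.01. LHCB1.3, a protein of the light-harvesting antenna, was at 24.6, 19.4 and 15.1 CPM in vnd7 and at 34.3, 31.5 and 31.2 CPM in Col-0 (-0.71 ± 0.17, adjusted p = 0.307), and it passed in DESeq2 (adjusted p = 0.0299). RBCS1A, the small subunit of Rubisco, was at 2.55, 3.17 and 3.01 CPM in vnd7 and at 4.58, 4.08 and 4.57 CPM in Col-0 (-0.60 ± 0.23). In vnd123 mock, LHCB1.3 was at 20.4, 17.1 and 18.5 CPM and RBCS1A at 1.38, 1.71 and 1.7 CPM, so both were below Col-0 there too. The part of such tissue in the other differences was not tested.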

How the data were processed

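Root RNA libraries were made, per the labels' protocols, with an unstranded kit and sequenced as read pairs (150 bases each). HISAT2 and HTSeq were used, per the submitters' processing notes. The genome build, annotation and counting settings were not stated in any label or header used here. The deposited table holds the authors' whole-number counts per gene, not normalized, for 34218 features and 18 libraries, and 0 columns were left out. Replicates are numbered, but no label says that they are separate cultures, and p-values therefore reflect only how these samples vary, which may be technical. Replicates of a group were not copies of each other (chi-square per degree of freedom 9.07 to 31.6).

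Counts were analysed in R 4.3.3 with edgeR 4.0.16: filterByExpr by group (20869 genes left), TMM factors, and 1 quasi-likelihood fit to all 18 libraries with a term for each group. Comparisons were contrasts of this model, with Benjamini-Hochberg adjusted p under 0.05. Levels are CPM on TMM-scaled library sizes. Counting intervals and floors cover counting error only, since PCR copies of a molecule cannot be recognised here. DESeq2 1.42.0 and the other settings given at the end were alternatives. The test was checked on simulated data, in which 20713 genes were fitted, those with planted changes included. In these data 5 genes without a planted change passed, beside 35, 53 and 58 genes planted at 1.5-fold, 2-fold and 4-fold. Of 32833 locus codes, 32548 were found in the TAIR10.1 annotation, used only for names, annotation classes, neighbours, overlaps and strand. Text names the VND genes, the 12 largest changes each way among genes that passed with mean log2 CPM over 1 and separate ranges, up to 3 genes that passed per list or else the one with the smallest p, and the genes next to VND7. Other genes named for their place in a list or near the threshold were chosen after their values were seen. The comparison, the lists and the alternatives were chosen with earlier results of these data known.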

Additional observations from a re-analysis of the deposited data

How the results depend on the processing

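The 14 genes of vnd7 against Col-0 in mock became 38 with DESeq2, 17 higher and 21 lower, with all 14 among them. The count was 15 without the filter, 14 with DESeq2 size factors or unscaled libraries, 14 with the compared groups only, of which 12 were among the main 14 (AT1G09890 and AT4G14548 lost, AT1G44030 and AT1G67150 gained), and 10 to 19 with 1 library left out. Samples of vnd7 and Col-0 share replicate numbers but no stated pairing. Each gene's group mean was first subtracted from the log2 CPM of each library. The remainders of same-numbered vnd7 and Col-0 mock libraries correlated at 0.174, 0.053 and 0.111. Each vnd7 library correlated best with its own number, a hint from the data and not the design. In ABA the values for vnd7 and Col-0 were -0.012, -0.021 and -0.021, and none was best with its own number. For vnd7 and vnd123 mock they were 0.046, -0.002 and 0.072, and only vnd7 mock replicate 3 was best with its own number. With a replicate block 17 genes passed, LHCB1.3 among them (adjusted p = 0.0303). In ABA the 34 genes became 159 with DESeq2, 56 with the compared groups only, 49 with the block, and 24 to 35 with 1 library left out. Against vnd123 the 103 genes became 167 with DESeq2, 105 with the block and 72 to 96 with 1 library left out. The interaction stayed at 0 in each setting run. The causes of these shifts were not tested. Among named genes that did not pass, the sign changed with settings for SFH3. It was at 0.01 with unscaled libraries, 0 without the filter and with the compared groups only, and 0.05 without Col-0 mock replicate 1. With 1 library left out, the sign also changed for HAI2, CESA6, TOC1, DIN10 and CBP60G. Over all alternative settings the changes ran from -0.06 to 0.05 for SFH3, -3.29 to 2.5 for HAI2 and -0.02 to 0.18 for CESA6. They ran from -0.02 to 0.13 for TOC1, -0.09 to 0.42 for DIN10 and -0.07 to 0.33 for CBP60G. Low counts limit HAI2, which had 0 or few reads in mock.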

Other observations

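In ABA, 21 genes passed between vnd7 and Col-0 that had not passed in mock, and 16 of them had the same direction in mock, 11 with an unadjusted p under 0.05. Neither the overlap nor the remainder shows a difference between the treatments, since the interaction test passed 0 genes. Nor does that result show that the genotype effect was the same in both treatments. The genes named next were chosen for their values. IRT1, the main iron transporter of the root, averaged 14.2 CPM in vnd7 and 65.2 CPM in Col-0 under ABA (log2 change -2.19 ± 0.38, adjusted p = 0.0138), and 292 CPM in vnd7 and 334 CPM in Col-0 in mock (-0.20 ± 0.35). FRO2, the iron reductase that works with IRT1, averaged 11.1 CPM in vnd7 and 47.2 CPM in Col-0 under ABA (-2.08 ± 0.37, adjusted p = 0.0149), and 200 CPM in vnd7 and 224 CPM in Col-0 in mock (-0.16 ± 0.34). The difference of the ABA change from the mock change was -2 (95% interval -3.07 to -0.92) for IRT1. For FRO2 it was -1.91 (95% interval -2.95 to -0.88). Neither gene passed the interaction test (adjusted p = 0.895 for each). SVP averaged 3.19 CPM in vnd7 and 8.03 CPM in Col-0 under ABA (-1.33 ± 0.20, adjusted p = 0.00255). Among enzymes of pectin, AT1G70500, annotated as a polygalacturonase, averaged 7.20 CPM in vnd7 and 14 CPM in Col-0 under ABA (-0.96 ± 0.12, adjusted p = 0.000176), and 7.13 CPM in vnd7 and 9.12 CPM in Col-0 in mock (-0.35 ± 0.12, adjusted p = 0.727).

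Of the 14 genes that passed in mock, 8 lie on chromosome 5, which held 4823 of the genes tested (0.166% passed), 3 on chromosome 1 (0.0542% of 5534), 2 on chromosome 4 (0.0629% of 3178), 1 on chromosome 3 (0.0243% of 4116) and 0 on chromosome 2 (3172 tested). MRN1, of the marneral cluster of triterpene genes, was at 6.13, 11.2 and 13.2 CPM in vnd7 and at 6.76, 5.73 and 3.37 CPM in Col-0 (0.95 ± 0.24, adjusted p = 0.391). It passed once vnd7 mock replicate 1 was left out (1.21, adjusted p = 0.0154). ARR16, a type-A cytokinin response regulator, was at 2.59, 1.17 and 0.590 CPM in vnd7 and at 3.01, 2.24 and 2.55 CPM in Col-0 (-0.84 ± 0.31, adjusted p = 0.947), and it passed without the same library (-1.54, adjusted p = 0.0142).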
